A study of Mus musculus with 2 samples.

Results

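The genes described here are 10 genes of the smooth muscle contractile apparatus, Myh11, Acta2, Tagln, Cnn1, Lmod1, Smtn, Des, Myl9, Mylk and Actg2, taken by symbol from the 32285 genes of the count tables. All 10 were found, each as 1 row. They were measured by single-cell RNA sequencing in mouse vein grafts, in 1 library of conventional grafts and 1 library of No-Touch grafts, the technique in which a vein is moved with its surrounding tissue left on. Both libraries came from C57BL6/J mice with a labelled age of 10-12 weeks, and both hold digested, live, nucleated cells sorted as CD45-, that is, without the common leukocyte antigen. The labels give a 3' kit of either v2 or V3 chemistry, and the time after grafting, the sex and the number of animals and grafts pooled in each library are not given in the sources used here. With 1 library per group there is no replicate and no test, so every difference below is between these libraries and not between graft types.

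Smooth muscle contracts when calcium activates myosin light chain kinase, which phosphorylates the regulatory light chain of smooth muscle myosin so that it pulls on actin filaments. Actin-binding proteins tune the filament, and the intermediate filament protein desmin links it to the rest of the cell. In vessels these genes are the usual markers of contractile smooth muscle, they are lost as smooth muscle cells change to a matrix-making state in injured walls, and pericytes and activated fibroblasts can also express some of them. Acta2 and Actg2 encode the vascular and the enteric smooth muscle actin. Tagln (transgelin), Cnn1 (calponin), Lmod1 (leiomodin, which nucleates actin filaments) and Smtn (smoothelin) encode proteins bound to actin. Myh11, Myl9 and Mylk encode the smooth muscle myosin heavy chain, the regulatory light chain and its kinase, and Des encodes desmin.

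In the mm10 annotation all 10 are protein-coding genes. Myh11 lies on chromosome 16 from 14194535 to 14291372 and Mylk on the same chromosome from 34745210 to 35002420. Tagln (45929619 to 45936058) and Cnn1 (22099216 to 22109630) lie on chromosome 9, and Lmod1 (135324807 to 135368065) and Des (75360329 to 75368579) on chromosome 1. Acta2 lies on chromosome 19 from 34241090 to 34255590, Smtn on chromosome 11 from 3517523 to 3540612, Myl9 on chromosome 2 from 156775420 to 156781658 and Actg2 on chromosome 6 from 83512905 to 83536265. Serum response factor, with its partner myocardin, drives many contractile genes through a sequence named the CArG box. This box was searched on both strands in the 250 bases before the start site of each RefSeq promoter window (GRCm38.p6), which 7 of the 10 genes have; Myh11, Tagln and Actg2 have none in that table. Myl9 and Acta2 held such boxes, either the full form or a form with 1 G or C in its central stretch, as did 8.59% of all 32851 windows. No other member window held one, so the 4 boxes shown are all that were found. Each is printed 5' to 3' on the gene's strand with the box in capitals and 10 bases on either side.
Myl9, 161 bases before the start, full form, chr2:156775293-156775322, + strand: caagcagaggCCTAATAAGGccgggctggc
Myl9, 99 bases before the start, with 1 G, chr2:156775355-156775384, + strand: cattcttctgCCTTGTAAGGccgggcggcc
Acta2, 84 bases before the start, with 1 C, chr19:34255438-34255467, - strand: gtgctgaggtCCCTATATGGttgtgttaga
Acta2, 34 bases before the start, with 1 G, chr19:34255388-34255417, - strand: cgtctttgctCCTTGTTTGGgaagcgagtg
The Acta2 boxes lie inside the span of the mm10 gene, which begins further upstream than the start site used here. A match describes letters in a window and is not evidence that a factor binds there, and no match in the windows of Des, Lmod1, Cnn1, Smtn and Mylk says nothing of more distant sites.

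The counts are unique molecular identifiers (UMIs), each standing for 1 captured RNA molecule. The deposited tables held 11899 barcodes with 200851272 UMIs in the conventional and 12450 barcodes with 373319906 UMIs in the No-Touch library, and 9583 and 10462 cells were kept at a median of 16255 and 27463.5 UMIs. The libraries share 22 barcode sequences, 16 of them among kept cells. Cells were clustered without the 10 genes, and the 32 clusters were named from markers that are not among them. Contractile smooth muscle-like cells numbered 384 and 468 in the conventional and the No-Touch library (here and below in this order), pericyte-like cells 828 and 309, fibroblast-like cells 3858 and 5395, blood endothelial-like cells 828 and 383, lymphatic endothelial-like cells 319 and 290, and neutrophil-like cells, which should lack contractile genes, 580 and 133. In the contractile smooth muscle class all 15 smooth muscle markers were at 10 CPM (UMIs per 1000000 UMIs of the class) or more in both libraries, with a summed level of 2230 and 2848 CPM. Markers of other types were present too, as given below, those of fibroblasts at a higher sum (6116 and 5188 CPM), and part of the class lost the name at a finer resolution. Its 2 clusters also differ. Cluster 16 (159 and 148 cells; led by Rgs5, Pcp4l1, Olfr558 and Pln besides Myh11) scored 0.63 for smooth muscle and 0.59 for pericytes, and took its name from its leading genes, 4 of them smooth muscle and 3 pericyte markers. Cluster 13 (225 and 320 cells; led by Col2a1, Itga8, Igfbp2, Itih4 and Sost besides members) scored 0.25 for smooth muscle and 0.19 for fibroblasts.

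Levels are given in CPM from the summed UMIs of a class, with exact 95% intervals that cover counting error only. They are not scaled to gene length, so levels are compared between cells and not between genes. In smooth muscle-like cells Acta2 stood at 5223 CPM (interval 5163 to 5283) in conventional and 6383 CPM (interval 6333 to 6433) in No-Touch grafts. Tagln stood at 4186 and 4845 CPM, Myl9 at 1095 and 1595 CPM, Myh11 at 975 and 1155 CPM, and Mylk at 794 and 678 CPM. The less abundant members were Lmod1 (272 and 485 CPM), Cnn1 (229 and 369 CPM), Des (234 and 112 CPM), Actg2 (183 and 127 CPM) and Smtn (147 and 250 CPM). The 10 genes together supplied 13338 and 16000 CPM in this class, 9164 and 7229 CPM in pericyte-like cells, 376 and 329 CPM in fibroblast-like cells and 270 and 218 CPM in neutrophil-like cells. All 10 were at least 1.5 times higher in smooth muscle-like than in fibroblast-like cells in both libraries, as were 13.2% of all genes tested, and all 10 were at least 1.5 times higher than in blood endothelial-like cells, against 18.2% of genes. The narrowest gap to fibroblasts was that of Smtn (3.68 and 6.70 times) and the widest that of Myh11 (123 and 247 times).

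**Figure D1:**
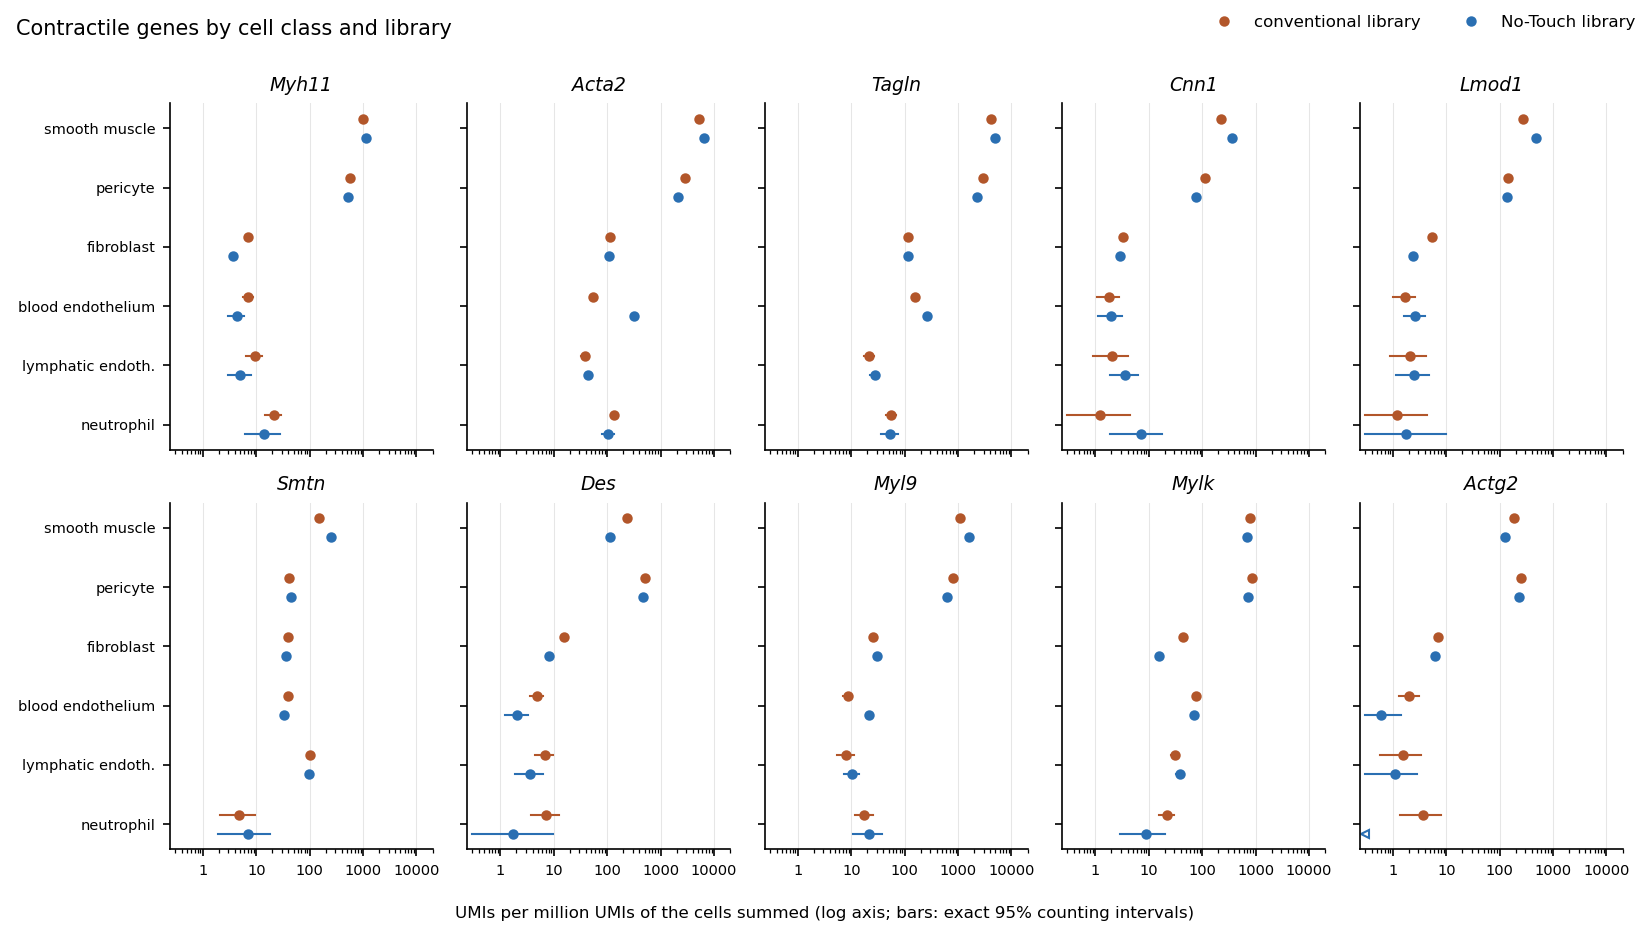
CPM of each contractile gene (log axis) in 6 cell classes, with the conventional library in orange, the No-Touch library in blue and exact 95% counting intervals as bars; an open triangle marks a count of 0. Smooth muscle and pericytes stand apart from the other classes for every gene except Smtn, whose pericyte level (40.1 and 45.2 CPM) is close to that of fibroblasts (39.3 and 36.5 CPM) and below that of lymphatic endothelium (103 and 96.4 CPM).

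Pericytes, the contractile cells around capillaries and small vessels, carried the same genes in other proportions. In both libraries 5 of the 10 were at least 1.5 times higher in smooth muscle-like than in pericyte-like cells (9.8% of all genes were), namely Myh11, Acta2, Cnn1, Lmod1 and Smtn. Smtn showed the widest gap, 147 against 40.1 CPM in the conventional and 250 against 45.2 CPM in the No-Touch library. Des went the other way, with 234 and 112 CPM in smooth muscle-like against 506 and 465 CPM in pericyte-like cells (10.4% of all genes were at least 1.5 times lower in both libraries). Mylk (874 and 736 CPM in pericytes) and Actg2 (252 and 229 CPM) were less than 1.5 times apart between these classes in at least 1 library, and so were Tagln (2963 and 2291 CPM) and Myl9 (792 and 624 CPM). Against fibroblast-like cells 9 of the 10 were at least 1.5 times higher in pericytes in both libraries (16.5% of genes), the exception being Smtn.

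Within smooth muscle the 2 clusters divided the genes differently. Cluster 16 held the higher levels of Myh11 (2215 and 2058 CPM, against 493 and 937 in cluster 13), Mylk (1727 and 1473, against 432 and 487), Myl9 (2010 and 2311, against 740 and 1423) and Des (688 and 475, against 58.0 and 24.2). Cluster 13 held the higher levels of Cnn1 (249 and 420 CPM, against 176 and 157) and Smtn (159 and 282, against 117 and 117). Actg2 was at 197 and 140 CPM in cluster 13 and at 149 and 76.6 CPM in cluster 16. Among the mural clusters Des was thus highest in the pericyte-like class and cluster 16, where pericyte markers were also highest, and low in cluster 13.

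Outside mural cells the members were set against neutrophil-like cells. Acta2 was at 136 and 104 CPM in neutrophil-like cells, against 114 and 110 CPM in fibroblast-like, 38.3 and 44.6 CPM in lymphatic and 55.1 and 312 CPM in blood endothelial-like cells. Of the 10 genes, 4 were at least 1.5 times higher in fibroblast-like than in neutrophil-like cells in both libraries (Tagln, Smtn, Des and Mylk) and 1, Myh11, was lower, where 52.5% and 18.5% of all genes were. In blood endothelial-like cells Tagln, Smtn and Mylk were higher and Myh11 lower (52.1% and 16.9% of genes). These shares cover only genes of at least 10 CPM in either of the classes compared. Cnn1, Lmod1 and Actg2 did not reach that level in either comparison, nor did Des against blood endothelial-like cells. The counts out of 10 can therefore not be read as below these shares. Acta2 and Myl9 were within 1.5 times between fibroblast-like and neutrophil-like cells in both libraries, and Cnn1, Lmod1 and Actg2 were under 10 CPM in both classes. The part of free RNA in these levels was not tested.

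Smtn and Mylk had an endothelial level above that of neutrophil-like cells. So did Tagln in blood endothelial-like cells (155 and 256 CPM, against 55.7 and 52.7 CPM), but not in lymphatic ones (21.5 and 27.4 CPM). Smtn, which encodes the smooth muscle protein smoothelin, was at 103 CPM (93.4 to 114) and 96.4 CPM (86.5 to 107) in lymphatic endothelial-like cells, against 4.84 and 7.02 CPM in neutrophil-like cells. Every cell was thinned to 3000 UMIs, which left out 13 and 7 lymphatic and 347 and 18 neutrophil-like cells. A Smtn UMI was then found in 28.4% and 24.4% of lymphatic cells and in 1.72% and 0% of neutrophil-like cells. Read as up to 3 cells, 0 of 115 allows up to 2.61%, a narrower limit than that of the exact interval. Mylk was at 76.2 and 70.1 CPM in blood endothelial-like cells, and after thinning in 20.7% and 16.5% of them against 3.86% and 0.870% of neutrophil-like cells. Unlike these, Acta2 had a UMI in 27.5% and 25.2% of thinned neutrophil-like cells and in 16.4% and 14.4% of fibroblasts. Before thinning, the median depth was 2765 and 4144 UMIs in neutrophil-like cells and 20532.5 and 35532 UMIs in fibroblasts.

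**Figure D2:**
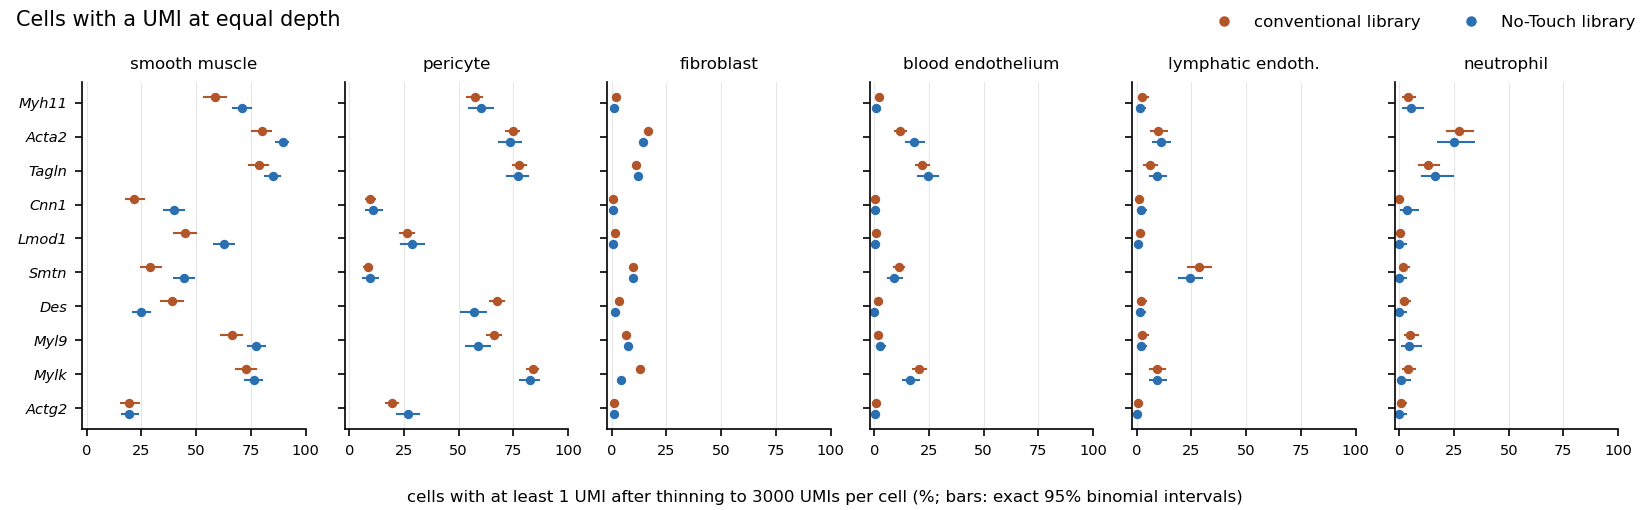
Share of cells (%) with at least 1 UMI of each gene after every cell was thinned to 3000 UMIs, by class, with exact 95% binomial intervals; orange is the conventional and blue the No-Touch library. Acta2 and Tagln are found in 13.3% to 27.5% of neutrophils, while Smtn in lymphatic endothelium (28.4% and 24.4%) and Mylk in blood endothelium (20.7% and 16.5%) stand above their neutrophil shares.

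Cells with UMIs of several members were mostly mural. After thinning, at least 5 of the 10 genes had a UMI in 65.1% (248 of 381) and 73.7% of smooth muscle-like cells and in 60.0% and 56.0% of pericyte-like cells, but in 0.393% and 0.318% of fibroblasts and in 0% of neutrophil-like cells. Epithelial-like cells of the No-Touch library were an exception, with 9 of 45 cells. Of these 45 cells 38 lay in cluster 30 (24 and 38 cells; led by secretory genes such as Smr3a and Bpifa2), where the basal keratins Krt14 (624 and 552 CPM) and Krt5 (1041 and 189.8 CPM) were present and Acta2 was at 464 and 507 CPM, Myh11 at 26.4 and 106 CPM and Des at 4.07 and 0.643 CPM. Among the other small classes, skeletal muscle-like cells (16 and 14 cells, with Myog at 613 and 1104 CPM) held Des at 1181 and 1146 CPM and Acta2 at 700.1 and 1433 CPM. In the No-Touch T or NK-like cells Myh11 was at 120 CPM, and 5 of the 173 cells held 88.4% of the class's member UMIs.

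The first comparison between the libraries asks whether contractile smooth muscle differed. At least 1.5 times higher in No-Touch grafts were 3 of the 10 members, against 10.4% of 8856 genes, and 1 was at least 1.5 times lower, against 7.03%. The actin-binding genes Lmod1 (272 CPM, 258 to 286, and 485 CPM, 472 to 499; log2 ratio 0.83), Smtn (147 and 250 CPM; 0.76) and Cnn1 (229 and 369 CPM; 0.69) were higher. Des was lower (234 CPM, 222 to 247, and 112 CPM, 105 to 119; -1.06). The actins and myosin genes were within 1.5 times, Acta2 at a log2 ratio of 0.29, Myh11 at 0.24, Myl9 at 0.54, Mylk at -0.23 and Actg2 at -0.52, and so was Tagln at 0.21. The median over the 10 was 0.27, against 0.09 over all genes.

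The clusters of the class differed in these ratios, and the part of cluster make-up in the class values was not tested. In cluster 16 none of the 10 was at least 1.5 times higher (13% of its genes were) and 1 was lower (8.11%), namely Actg2 (149 and 76.6 CPM). In cluster 13, 5 were higher (12.6% of genes), Myh11 (493 and 937 CPM), Cnn1, Lmod1, Smtn and Myl9 (740 and 1423 CPM), and Des was lower (7.5% of genes). At a finer resolution cluster 13 split into fine cluster 20, led by Itga8, Sost and Npnt, and fine cluster 24, led by the cartilage genes Col2a1 and Acan with Ibsp and Col10a1, which no longer carried a smooth muscle name and had 9 and 8 of the 15 smooth muscle markers at 10 CPM or more. Its best score was for fibroblasts (0.21) and its next for pericytes (0.16). Its fibroblast markers summed to 9388 and 7187 CPM, against 774 and 943 CPM for the smooth muscle markers. Of the cells of cluster 13, 85 conventional and 244 No-Touch cells went to fine cluster 20, and 140 and 76 to fine cluster 24. Fine cluster 24 held 190 and 77 cells in all, the rest from outside the smooth muscle and pericyte classes. It is counted as mural below because most of its cells came from cluster 13.

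Each of the 10 members was higher in fine cluster 20 than in fine cluster 24 in both libraries. Acta2 stood at 8721 and 9203 CPM in the first and at 1974 and 1817 CPM in the second. Myh11 was at 1230 and 1485 against 91.3 and 31.7 CPM, and Cnn1 at 617 and 650 against 45.5 and 41.0 CPM. The gap was smallest for Des (62.8 and 31.4 against 47.0 and 12.2 CPM) and Actg2 (206 and 170 against 151 and 89.3 CPM). Within fine cluster 20 only Lmod1 was at least 1.5 times higher in the No-Touch library (452 and 732 CPM; 14.3% of genes were) and only Des lower (62.8 and 31.4 CPM; 6.85%), and the median log2 ratio of the 10 was 0.09 against 0.11 over all genes. Within fine cluster 24, 0 were higher (15.5%) and 4 lower (14.8%), Myh11, Des, Mylk (246 and 127 CPM) and Actg2 (151 and 89.3 CPM). Cnn1 was thus 1.69 times higher over cluster 13 and 1.05 times over fine cluster 20, and Smtn 1.77 and 1.32 times. Lmod1 kept a ratio of 1.62 in fine cluster 20 and Des a ratio of 0.51.

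**Figure D3:**
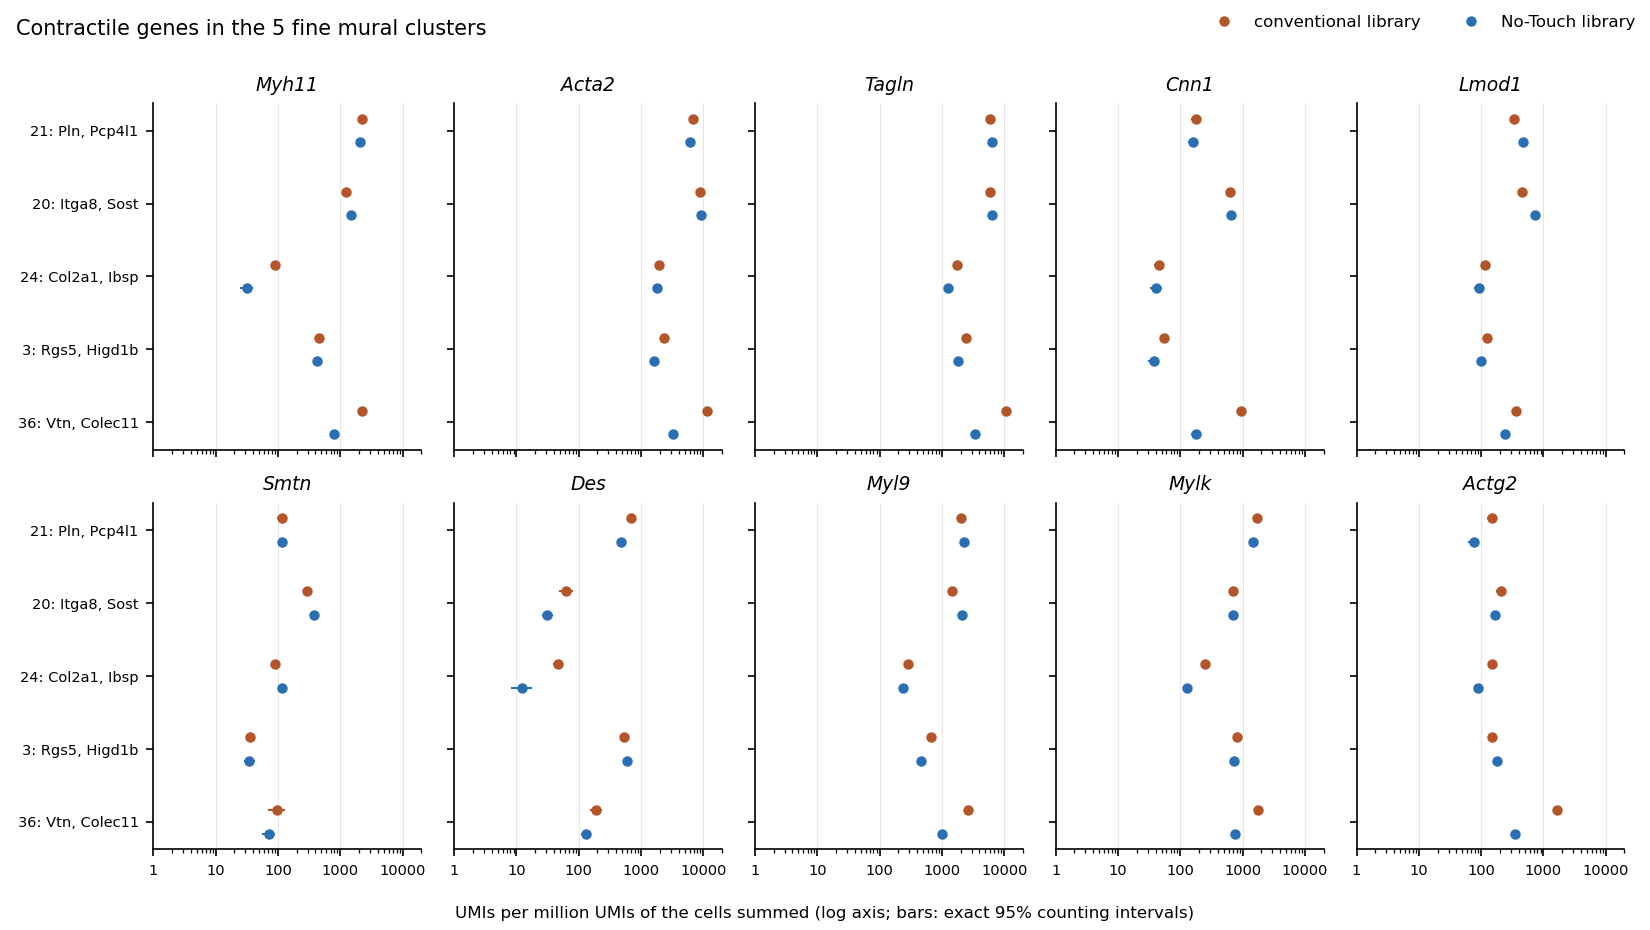
CPM of each gene (log axis) in the 5 fine mural clusters, labelled by 2 leading genes, with the conventional library in orange, the No-Touch library in blue and exact 95% counting intervals. Fine cluster 24 (Col2a1, Ibsp) is the lowest for Myh11, at 91.3 and 31.7 CPM, and in fine cluster 36 most genes lie apart between the libraries, with Actg2 at 1641 and 344 CPM.

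Markers of other cell types differed beside these values. Over the smooth muscle class all 12 fibroblast markers were present at 10 CPM or more in the No-Touch and 11 in the conventional library, none of them at 0 in either, and their sum was lower than the 17639 and 18034 CPM of fibroblast-like cells. The 10 pericyte markers summed to 3212 and 2082 CPM, with 9 and 8 at 10 CPM or more and 1 at 0 in each. In fine cluster 20 the fibroblast markers summed to 8607 and 5546 CPM, with Dcn, a collagen-binding matrix gene of fibroblasts, as one of them (3786 and 2516 CPM). Of the 10 skeletal muscle markers none reached 10 CPM in the smooth muscle class, and 7 and 6 were at 0. The part of these cells or of their RNA in the differences was not tested.

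In pericyte-like cells none of the 10 members was at least 1.5 times apart, where 14.7% of 8722 genes were. Acta2 was at 2906 CPM (2870 to 2943) and 2091 CPM (2051 to 2131), a log2 ratio of -0.47. Cnn1, at 115 CPM (108 to 122) and 77.1 CPM (69.6 to 85.2), lay nearest to the limit at -0.57 and passed it under other settings. Smtn and Lmod1 had ratios close to 1 (log2 0.17 and -0.01). The median of the 10 was -0.19 against 0.07 over all genes, on the opposite side of the median of all genes from that in smooth muscle. TMM and median-of-ratios scaling moved the median of all genes in this class to -0.03 and -0.04, a shift of over 0.1.

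**Figure D4:**
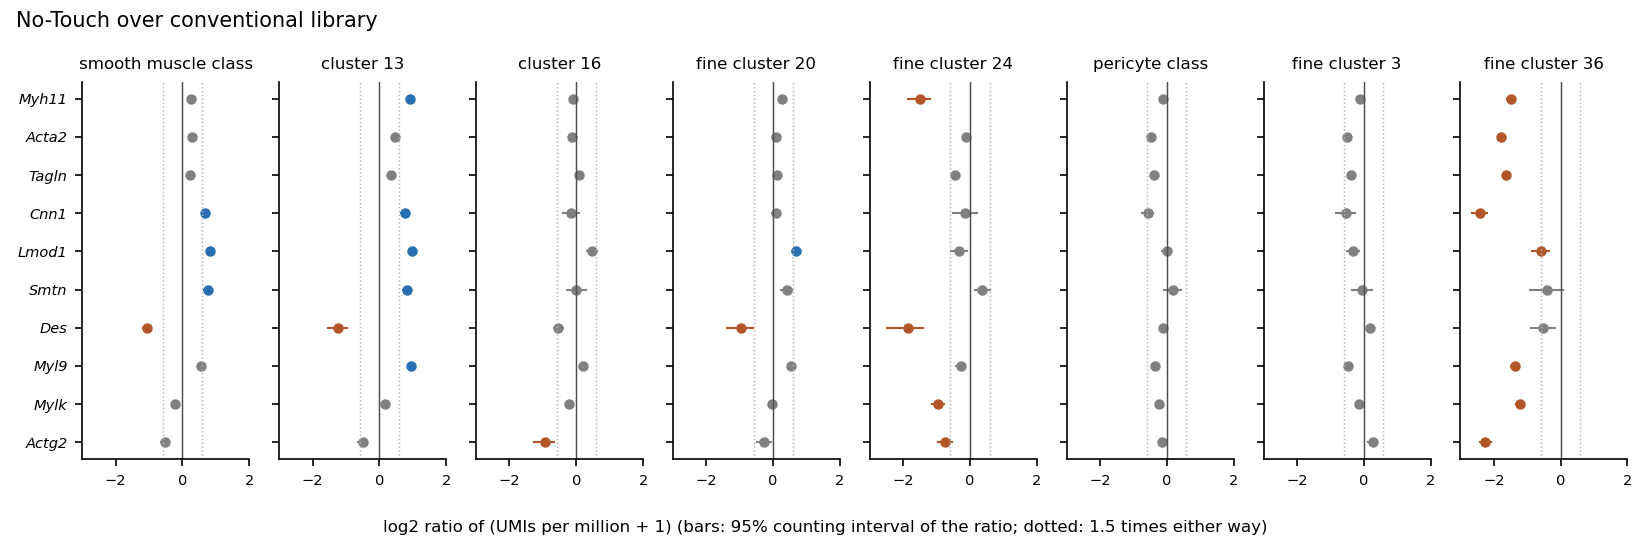
No-Touch over conventional log2 ratio of each gene in the smooth muscle and pericyte classes and in clusters that hold their cells. Bars are 95% counting intervals of the ratio. Blue is at least 1.5 times higher, orange at least 1.5 times lower, grey within these limits. Fine cluster 24, whose best score was for fibroblasts, also holds cells from outside both classes. The smooth muscle class shows 3 blue genes and cluster 13 shows 5, but fine cluster 20 within it shows 1, and fine cluster 36 within the pericyte class shows 8 orange genes that the class as a whole does not.

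The pericyte class held a small subset in which the members differed widely. Fine cluster 36 (40 conventional and 80 No-Touch cells), led by Vtn, Rgs5 and Colec11 besides members, had the highest Actg2 level of any fine mural cluster, 1641 CPM and 344 CPM. Of the 10 members 8 were at least 1.5 times lower in the No-Touch library, where 13.4% of its genes were, and 0 were higher (24.1%). Acta2 was at 11386 and 3291 CPM, Tagln at 10738 and 3421 CPM, Myh11 at 2242 and 805 CPM and Cnn1 at 953 and 178 CPM, while Smtn (95.8 and 71.4 CPM) and Des (190 and 131 CPM) were within 1.5 times. The median log2 ratio of the 10 was -1.43 against 0.11 over all genes. Beside this, Dcn was at 2317 and 4208 CPM, the 12 fibroblast markers summed to 5123 and 7861 CPM (11 and 12 of them at 10 CPM or more, none at 0) and the 15 smooth muscle markers to 2920 and 1549 CPM, with 1 of them, Pln, at 0 in both libraries. Their part in the difference was not tested. The cells are few, so that this cluster need not hold the same mixture in both libraries. In fine cluster 3, the rest of the pericyte class (788 and 229 cells), 0 of the 10 were at least 1.5 times apart (14% of genes). There Actg2 was at 152 and 183 CPM, and Cnn1 at 54.5 and 37.2 CPM against 115 and 77.1 CPM over the class. The members summed to 31992 and 10249 CPM in fine cluster 36, the highest fine mural cluster in the conventional library. The 10 pericyte markers summed to 3806 and 4355 CPM in fine cluster 36 and to 7078 and 9490 CPM in fine cluster 3.

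Counted cell by cell, the members' share of a cell's UMIs had a median of 1.41% in conventional and 1.57% in No-Touch cells of fine cluster 21, which is cluster 16 under another number, and 0.946% and 1.99% in fine cluster 20. In the latter the 95th percentile was 5.99% and 4.93%, so the high cells of both libraries reached similar shares while the middle of the distribution lay higher in the No-Touch library. The median was 0.0879% and 0.184% in fine cluster 24, 0.424% and 0.384% in fine cluster 3 and 2.52% and 0.550% in fine cluster 36. In fine cluster 24 the level summed over cells went the other way from this median, at 4801 and 3837 CPM. Fibroblast-like cells had a median of 0.0162% and 0.0128% and neutrophil-like cells one of 0.0254% and 0.0200%.

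**Figure D5:**
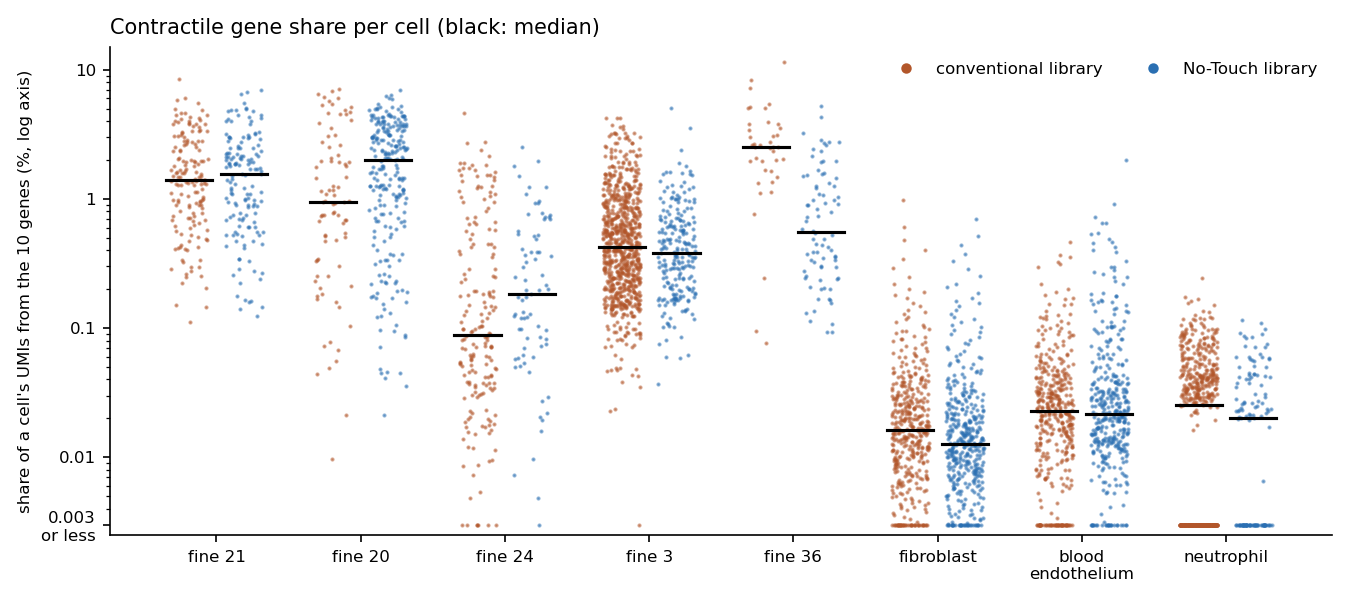
Share of each cell's UMIs that came from the 10 genes (%, log axis), 1 point per cell (in large classes an evenly spaced selection of cells in order of value), with medians in black, the conventional library in orange and the No-Touch library in blue; values at or below 0.003% are drawn at the bottom. The medians of fine cluster 36 are 2.52% and 0.550%, and those of fibroblasts, blood endothelium and neutrophils are all under 0.03%.

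Within a cluster the members varied together from cell to cell to different degrees. The Spearman correlation of Acta2 with Tagln was 0.83 and 0.84 in fine cluster 21, 0.88 and 0.88 in fine cluster 20 and 0.74 and 0.70 in fine cluster 3. That of Acta2 with Myl9 was 0.80 and 0.84, 0.87 and 0.85, and 0.57 and 0.54 in the same order. Des stood out, with correlations to Acta2 of 0.14 and -0.17, 0.20 and 0.10, and 0.02 and -0.10. Cells of a cluster share a library, and the correlations of sparse genes such as Smtn (0.06 and 0.33 with Acta2 in fine cluster 20) are limited by counts, so these values are descriptive.

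Across 48 points, each a cluster of at least 50 cells in 1 library, most members followed the mean of the others closely. Pearson's r between a member's standardised log2(CPM + 1) and the mean of the other 9 was 0.92 for Myl9, Acta2, Cnn1 and Lmod1, 0.91 for Myh11, 0.87 for Tagln, 0.85 for Actg2, 0.84 for Mylk and 0.81 for Des. Smtn was the least like the rest, at 0.51. Of 7891 other genes, the 10 with the pattern most like the members' mean were Mrvi1 (0.95), which encodes a substrate of the cyclic GMP-dependent kinase, Myocd (0.94), the gene of myocardin, Myom1 (0.92), Map3k7cl (0.92), Kcnk3 (0.91), Kcnmb1 (0.91), Rgs5 (0.90), Dgkb (0.90), Cox4i2 (0.90) and Gm13861 (0.90). Kcnmb1, Map3k7cl, Rgs5 and Cox4i2 were markers used to name classes. The points share libraries and depth, so no test is attached.

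Members were also set against their nonmuscle relatives in the same cells. Myh11 over the nonmuscle heavy chain gene Myh9 was 2.53 and 6.71 in UMIs in the smooth muscle class and 1.02 and 1.59 in pericytes, and it was higher in the No-Touch library in fine clusters 20 (4.57 and 10.3) and 21 (5.71 and 9.87), but lower in fine cluster 36 (6.96 and 3.97). Myh9 itself, however, was at least 1.5 times lower in the No-Touch library in every class given here, at 385 and 172 CPM in smooth muscle, 562 and 333 CPM in pericytes, 179 and 111 CPM in fibroblasts, 610 and 393 CPM in blood endothelium, 497 and 304 CPM in lymphatic endothelium and 243 and 140 CPM in neutrophil-like cells. Against the other nonmuscle heavy chain gene, Myh10, the ratio of Myh11 was 9.59 and 8.53 in smooth muscle and 175 and 172 in fine cluster 21, but 32.5 and 21.3 in pericytes, 23.0 and 12.8 in fine cluster 36 and 0.94 and 0.47 in fine cluster 24. Acta2 over Actb, the cytoplasmic actin gene, was 1.27 and 1.88 in smooth muscle, and Cnn1 over Cnn2 was 1.00 and 1.95. Des over Vim, another intermediate filament gene, was 0.0575 and 0.0200 in smooth muscle, and Vim was at 4074 and 5583 CPM.

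Of 83 further genes of contraction, its control and the modulated state with at least 10 CPM in smooth muscle-like cells, 6 were at least 1.5 times higher in No-Touch grafts and 11 lower (median log2 ratio 0.06), where 10.4% and 7.03% of all genes were. After TMM scaling, as after median-of-ratios scaling, the split was 4 and 13, and after thinning it was 9 and 7. Receptors through which hormones, endothelin and ATP act on vessels had the most on 1 side, with 4 of 6 lower and 0 higher (median -0.90), beside the same 7.03% and 10.4% of all genes. Among them were Avpr1a, a vasopressin receptor (25.3 and 10.8 CPM), Ednrb, an endothelin receptor (135 and 68.7 CPM), P2rx1, an ATP-gated channel (32.4 and 16.6 CPM), and Agtr1a, an angiotensin receptor (10.1 and 5.06 CPM). Agtr1a reached 10 CPM only in the conventional library, where it was higher. Ednra, the other endothelin receptor, was at 69.8 and 48.7 CPM. The receptors also differed between clusters. Ednrb was at 476 and 350 CPM in fine cluster 21 and at 2.89 and 1.41 CPM in fine cluster 20. Within fine cluster 21 only 1 of 6 receptors was lower (Avpr1a, 84.8 and 51.6 CPM), where 8.11% of genes were. The part of cluster make-up in the class values was not tested.

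Genes of the filament and of its regulation were mostly within 1.5 times. Of 15 thin filament partners and anchors 13 were within 1.5 times, 1 was lower and 1 was higher (Ldb3, a Z-disc protein in striated muscle, 27.6 and 46.4 CPM), with Speg at 39.7 and 57.4 CPM and Tpm2, a tropomyosin, at 1163 and 1616 CPM. Of 9 genes of myosin phosphatase and the RhoA-ROCK branch 0 were higher and 1 lower, Arhgap42 (43.4 and 26.9 CPM), which inactivates RhoA, while Arhgef12 was at 253 and 183 CPM, the phosphatase inhibitor gene Ppp1r14a at 214 and 287 CPM and Ppp1cb at 169 and 223 CPM. Of 11 genes of calcium entry and release 1 was lower, the channel gene Trpc6 (15.05 and 7.69 CPM), and the potassium channel gene Kcnma1 (18.8 and 28.1 CPM), Orai1 (22.0 and 17.2 CPM) and Calm2 (597 and 726 CPM) were within 1.5 times. Of 7 genes of relaxation 1 was higher, Hspb6 (45.9 and 88.6 CPM), a small heat shock protein of smooth muscle, with Gucy1a1 at 210 and 300 CPM, Hspb1 at 2448 and 1790 CPM and Pde5a at 83.0 and 105 CPM. Of 13 nonmuscle and related genes Myl6, a myosin essential light chain, was higher (2265 and 3506 CPM) and Myh9 lower.

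Of 10 transcriptional regulators Prdm6, which restrains smooth muscle genes, was higher (15.6 and 42.9 CPM) and 0 were lower. Myocd was at 65.2 CPM (58.7 to 72.2) and 48.3 CPM (44.0 to 52.8) over the class, but at least 1.5 times lower in fine clusters 20 (130 and 68.5 CPM; 6.85% of genes) and 21 (78.4 and 48.5 CPM; 8.11%). In fine cluster 24 it was within 1.5 times, at 21.6 and 14.6 CPM. It was also lower in pericyte-like cells (33.5 and 12.0 CPM). Smad3 was at 30.8 and 21.04 CPM and Mrtfa at 26.2 and 18.9 CPM. Of 12 genes of the modulated state 2 were higher, Lgals3 (145 and 244 CPM) and Cd34 (44.3 and 68.0 CPM), and 3 were lower, the matrix genes Spp1 (1926 and 687 CPM), Thbs1 (1692 and 591 CPM) and Col8a1 (446 and 152 CPM). Within fine cluster 20 the same list had 1 higher and 6 lower (median -0.59; 14.3% and 6.85% of all genes), among them Spp1 (1627 and 502 CPM), Thbs1 (700 and 199 CPM) and Lum (3549 and 1814 CPM). In pericyte-like cells 5 of 78 genes of these lists were higher and 8 lower (median -0.10; 10.2% and 4.45% of all genes), or 5 and 14 after either other scaling, among them Gucy1a1 (321 and 545 CPM), a subunit of the nitric oxide receptor, and Agtr1a (65.3 and 33.4 CPM).

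Fibroblast-like cells were compared over 6 members of at least 10 CPM, of which 0 were at least 1.5 times higher in No-Touch grafts (7.2% of 8468 genes were) and 2 were lower (4.75%). Mylk was at 44.4 CPM (43.1 to 45.8) and 15.3 CPM (14.8 to 15.9), and Des at 15.7 and 8.00 CPM. Des reached 10 CPM only in the conventional library, where it was higher. Acta2 (114 and 110 CPM), Tagln (114 and 114 CPM), Smtn (39.3 and 36.5 CPM) and Myl9 (25.8 and 29.7 CPM) were within 1.5 times. Different clusters held most of this class in the libraries. Cluster 4 held 1502 and 58 cells and cluster 10 held 763 and 16, while cluster 0 held 129 and 1794 and cluster 3 held 300 and 1295. Mylk was also at least 1.5 times lower within clusters 3 (27.6 and 10.6 CPM; 4.37% of genes) and 4 (60.2 and 32.1 CPM; 6.73% of genes), and was at 9.51 and 9.76 CPM in cluster 0. In neutrophil-like cells the Mylk level was 21.8 CPM (interval 15.3 to 30.1), against 8.78 CPM from 5 UMIs (interval 2.85 to 20.5), and these intervals overlap. The part of free RNA in the fibroblast values was not tested.

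Among fibroblast clusters the summed level of the 10 genes ran from 114 CPM in clusters 10 and 0 to 1142 CPM in cluster 24, over both libraries. Cluster 24 (41 and 126 cells) was led by genes of cell division such as Cenpf and Mki67, and held Acta2 at 688 and 537 CPM, Tagln at 362 and 246 CPM and Des at 228 and 46.6 CPM. Cluster 15 (356 and 39 cells; led by the collagenase gene Mmp13 and by Grem1) came next, with Acta2 at 269 and 397 CPM. In it Lmod1 (15.1 and 25.7 CPM) and Actg2 (22.8 and 42.1 CPM) were at least 1.5 times higher (9.68% of its genes) and Des (41.3 and 2.51 CPM) and Mylk (134 and 52.1 CPM) lower (12.5%). In cluster 3, led by Thbs4, C1qtnf3 and Angptl1, the summed level was 351 and 526 CPM, and Tagln (150 and 264 CPM) and Myl9 (25.9 and 63.4 CPM) were higher (6.73% of its genes). Cluster 6 (155 and 921 cells; led by Crabp2, Csf2 and Lrrc15) was the one in which most members were lower in the No-Touch library, 6 of 7 (3.81% of its genes), with Acta2 at 291 and 175 CPM and Tagln at 261 and 136 CPM. The highest of these levels remained below those of pericyte-like cells, at 2906 and 2091 CPM for Acta2.

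In blood endothelial-like cells 5 members reached 10 CPM in at least 1 library. Of these, 3 were at least 1.5 times higher in the No-Touch library, where 11.6% of 8612 genes were, and 0 were lower (6.69%). Myl9, 1 of the 3, reached 10 CPM only in the No-Touch library, where it was higher. Acta2 was at 55.1 CPM (50.8 to 59.6) and 312 CPM (299.5 to 324), Tagln at 155 and 256 CPM and Myl9 at 8.56 and 21.5 CPM, while Mylk (76.2 and 70.1 CPM) and Smtn (39.2 and 33.5 CPM) were within 1.5 times. Most Acta2 UMIs of the No-Touch class came from cluster 28, led by Cytl1, Ctla2a and Emcn and made of 5 conventional and 73 No-Touch cells, in which Acta2 stood at 1035 CPM and Tagln at 557 CPM in the No-Touch library, with Pecam1 at 1157 CPM. Without cluster 28, Acta2 was at 52.7 and 67.7 CPM, Tagln at 156 and 155 CPM and Myl9 at 8.47 and 7.52 CPM, each within 1.5 times. The share of all genes apart in the class without this cluster was not counted. Cluster 20 of this class (168 and 50 cells) nevertheless had Acta2 at 111 and 267 CPM and Myl9 at 15.2 and 31.6 CPM, 2 of 5 members higher in the No-Touch library, where 14.9% of its genes were. In the whole class 5 cells of 383 held 32.6% of the members' UMIs in the No-Touch library, against 10.96% for 5 of 828 conventional cells. The smooth muscle markers summed to 309 and 469 CPM (5 and 6 of 15 at 10 CPM or more, and 0 and 2 at 0); their part in these values was not tested.

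In lymphatic endothelial-like cells 0 of 5 members were 1.5 times apart, where 16.4% of 8714 genes were, and Smtn supplied 46.1% and 41.5% of the members' UMIs there, against 1.10% and 1.56% in smooth muscle-like cells. In perineurial-like cells of nerve sheaths (129 and 99 cells) Tagln was at 720 and 219 CPM and supplied 70.7% and 56.5% of the members' UMIs, and 5 cells of the conventional library held 66.8% of them.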

How the data were processed

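Both libraries hold UMI counts per gene and cell barcode, deposited by the authors as filtered matrices of whole numbers. They were made with Cell Ranger 3.1.0 on mm10 per the submitters' processing notes, and with Cell Ranger 6.0.0 per the file headers; the difference was not settled. The labels and headers do not say whether counting used strand. Groups come from the sample titles. The members, the gene lists and the comparisons were chosen with earlier results of these data known.

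Barcodes with at least 500 genes, 1000 UMIs and a mitochondrial share of up to 10% passed (10458 and 11525). Doublets were removed with Scrublet (scanpy 1.11.5) by 1 rule in both libraries, the highest scores at 0.8% per 1000 barcodes (875 and 1063); its automatic threshold would have marked 2.40% and 2.85%. Of 2000 genes variable within the libraries, 9 were members and were left out. Clusters came from 30 components, 15 neighbours and Leiden (leidenalg 0.10.2) at resolution 1, with resolution 2 for fine clusters. A cluster's name needed 3 class markers detected in 10% of cells, each scaled to its highest cluster or 200 CPM; a margin under 0.05 was settled by the 10 leading genes. This scoring was set after clusters were seen. A cluster whose leading genes held more markers of another class lost its name, which set aside 3 clusters with fibroblast scores (2018 and 2609 cells).

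UMIs were summed per class and library and scaled to 1000000 (CPM). Ratios set No-Touch CPM + 1 over conventional CPM + 1 and were counted from 1.5 times, with no test made. A gene was counted when it reached 10 CPM in at least 1 of the libraries, so some reached it only where they were higher. The shares of all genes follow the same rule. Intervals at 95% are exact (Garwood for counts, Clopper-Pearson for shares) and cover counting error only. Where the text says what a count of 0 allows, it takes 3 counts, a narrower limit than these intervals give. Counting calls were tested on simulated data, which says nothing of variation between libraries. From each pathway list up to 4 genes of at least 20 CPM with the largest ratios in smooth muscle-like cells are named; Agtr1a, Trpc6, Cd34, Lum and those named for single clusters or for pericytes were chosen after their values were seen, and some genes that this rule names are not reported here. Alternatives were TMM (edgeR 4.0.16) and median-of-ratios scaling, other minima and pseudocounts, cell means, thinning, doublet, mitochondrial and clustering settings, and single clusters. Promoter windows are from RefSeq and gene positions from GENCODE vM21.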

Additional observations from a re-analysis of the deposited data

Results flagged for a closer look

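Some members were at least 1.5 times higher in the No-Touch library in 1 class and lower in another. Each value is a log2 ratio from 1 library per group, the differences between classes were not tested, and classes of at least 50 cells in both libraries were compared. Of all genes, 11.6% were at least 1.5 times higher in blood endothelial-like and 10.4% in smooth muscle-like cells. In fibroblast-like cells 4.75% were as much lower. For Schwann-like, perineurial-like, mononuclear phagocyte-like and neutrophil-like cells this share was not counted. How usual opposite directions are among all genes was not counted either. Acta2 was higher in blood endothelial-like (2.48) and lower in perineurial-like cells (-1.41). Tagln was higher in blood endothelial-like (0.72) and mononuclear phagocyte-like cells (0.76) and lower in Schwann-like (-1.16) and perineurial-like cells (-1.71). Smtn was higher in contractile smooth muscle-like (0.76) and lower in Schwann-like cells (-0.61, at 65.1 and 42.4 CPM). Myl9 was higher in blood endothelial-like (1.24) and mononuclear phagocyte-like (0.61) and lower in Schwann-like (-0.69) and perineurial-like cells (-0.74). Mylk was higher in Schwann-like cells (0.72, at 9.20 and 15.8 CPM) and lower in fibroblast-like (-1.48), neutrophil-like (-1.22), mononuclear phagocyte-like (-1.26) and perineurial-like cells (-0.86).

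The 95% counting interval of the ratio included 1 for 5 of these values, Mylk in Schwann-like (0.92 to 3.44 times), neutrophil-like (0.12 to 1.03) and mononuclear phagocyte-like cells (0.093 to 1.70), and Tagln (0.83 to 4.16) and Myl9 (0.55 to 6.12) in mononuclear phagocyte-like cells. In blood endothelial-like cells Acta2, Tagln and Myl9 were within 1.5 times without cluster 28, while cluster 20 had Acta2 at 111 and 267 CPM and Myl9 at 15.2 and 31.6 CPM. In perineurial-like cells 5 cells held 66.8% (conventional) and 33.8% (No-Touch) of the members' UMIs. The mononuclear phagocyte-like class had 52 member UMIs in all in the conventional library.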

How the results depend on the processing

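In smooth muscle-like cells the count of members at least 1.5 times apart was 4, and 1 with cluster 16 alone (chosen after seeing the data), where the log2 ratio of Cnn1 was -0.16; it was 3 to 6 under the other alternatives. In pericyte-like cells the count of 0 became 1 with TMM scaling, without cells holding UMIs of other types' markers and with the neutrophil-like level subtracted, and 2 with median-of-ratios scaling, doublets kept, the automatic doublet threshold and a mitochondrial limit of 5%; all of these were lower in the No-Touch library. The 13 pathway genes became 21 after thinning and 20 with the automatic threshold. In fibroblast-like cells 2 became 4 without a minimum, 0 at 50 CPM, and 1 with the neutrophil-like level subtracted or a pseudocount of 10 CPM. In blood endothelial-like cells 3 became 6 without a minimum and, without cluster 28 (added after seeing the data), 0, with Tagln at -0.0070 and Myl9 at -0.15. In lymphatic cells 0 became 2 without a minimum, 1 with means over cells, after thinning and after subtraction, and 3 with doublets kept. The share of cells with a UMI was apart for 7 members, 8 without thinning and 7 at 5000 UMIs. For this measure no share of all genes was counted, so 7 cannot be read as many or as few. Shares of all genes were counted only for the main settings and for single clusters, so the other counts here have none beside them. The causes were not tested. TMM and median-of-ratios scaling moved the median over all genes by over 0.1 in blood endothelial-like cells too, from 0.05 to -0.05 and -0.06. Under the alternatives 386 values stayed within counting error or 1.5 times the count, 251 moved further and 3 reversed.

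No paired analysis was possible because each group is 1 library. Depth limits the small classes: neutrophil-like cells, which set the background, held 447 and 124 member UMIs, and no difference here has a replicate. Intervals leave out variation between animals, grafts and library preparations.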
